A study of Mus musculus with 8 samples.

Results

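The cells described here, 350 cells of 1 mouse pancreatic tumor, all carried epithelial markers. They scored highest for 6 genes, among them the 3 gastrokines, secreted proteins of the stomach lining. They were taken from a table of 2812 cell barcodes (columns) of a medium size tumor, out of 4345 columns in the series. The rule ranked columns by the mean, over Gkn1, Gkn2, Gkn3, Prap1, Mcpt1 and Mcpt2, of log2(1 + UMIs per 10000 UMIs of the column), where a UMI marks 1 captured RNA molecule. Only the 2495 columns with a UMI for fewer than 5 of 11 macrophage genes could be chosen, and the 350 with the highest score were kept. The scores ran from 2.50 to 6.63 with a median of 3.45. The columns at ranks 349 and 350 scored 2.50035 and 2.49948 and those at ranks 351 and 352 scored 2.49673 and 2.49618, so the limit fell on a slope without a gap. The cells were thus chosen by the values of these 6 genes, which are given below as a description.

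Both tumors of the series came from KPC mice, in which Pdx-1-Cre switches on conditional alleles, among them LSL-Trp53R172H/+, in cells of the pancreatic lineage, and the mice received no treatment. The labels give the tissue as pancreatic ductal adenocarcinoma and the 2 tumors as medium and large in size, with no age. Cells were freed with a Miltenyi tumor dissociation kit and captured with the 10x Genomics Chromium 3′ v2 kit. The labels list 4 technical replicates per tumor, which each deposited table pools, so each tumor is 1 sample, no spread between animals could be measured and no p-value is given. All intervals are exact Poisson (levels), exact binomial (shares) or conditional binomial (ratios) at the 95% level, and they cover counting error only. The 350 cells held 2438273 UMIs, with a median of 5597.5 per cell and a range of 2713 to 33010.

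In the stomach, pit (foveolar) cells line the surface and secrete the gastrokines Gkn1 and Gkn2, the trefoil peptide Tff1 and the gel-forming mucin Muc5ac. Neck and antral gland cells below them make Muc6, Tff2 and pepsinogen C, and mouse Gkn3 marks neck cells. Cells of early pancreatic lesions are known to take up parts of this gastric programme.

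Levels are given as CPM, the UMIs of a gene per 1000000 UMIs summed over a set of cells. The comparison set was 1893 other epithelial columns of the same table, with a UMI for at least 4 of 11 epithelial markers, few macrophage, fibroblast, endothelial and mesothelial markers, and a median of 6082 UMIs. A gene was called higher or lower when its ratio of CPM, with 10 CPM added to both sides, reached 2-fold, among genes with at least 50 UMIs in both sets together. Of 10574 genes, 123 were called higher in the gastrokine-high cells (1.16%) and 144 lower (1.36%), and the median log2 ratio of all genes was -0.07. The 350 cells had a median of 8 of the 11 epithelial markers, as did the other epithelial columns. The duct keratin Krt19 stood at 1974 and 1712 CPM and the adhesion molecule Epcam at 1241 and 1104 CPM in the 2 sets. Of the 11 epithelial markers none was called higher and 2 were called lower, the claudins Cldn3, at 82.0 against 241 CPM, and Cldn4, at 18.0 against 109.5 CPM.

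Gkn1 was the most abundant of the 6 genes of the rule. Every one of the 350 cells held at least 1 Gkn1 UMI, with a lowest value of 1, a median of 63.5 and a highest of 1211 per cell. The summed level was 15311 CPM, against 512 CPM in the other epithelial columns. Gkn2 reached 5279.6 CPM against 134 CPM, with a median of 11 UMIs per cell, and 315 of the 350 cells had a UMI. Gkn3 reached 5999.7 CPM against 390.1 CPM, with a median of 26 UMIs per cell and a UMI in 336 cells. All 3 gastrokines were seen together in 302 of the 350 cells (86.3%) and in 236 of the 1893 others (12.5%).

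The remaining 3 genes were lower in level. Prap1, a secreted protein of gut epithelium, had 558 CPM against 43.7 CPM, was seen in 189 of the 350 cells, and the 35 cells with the most Prap1 held 72.2% of its UMIs, against 57.9% for Gkn2, 46.4% for Mcpt1 and 44.0% for Mcpt2. Mcpt1 and Mcpt2 encode chymases known from mucosal mast cells. Mcpt1 had 349 CPM against 53.8 CPM and Mcpt2 971 CPM against 131 CPM. Either was seen in 307 of the 350 cells (87.7%) and both in 216 (61.7%), against 688 (36.3%) and 251 (13.3%) of the other epithelial columns. Of 12 other mast cell genes, 8 were at 0 UMIs in the 350 cells, among them the defining genes Cpa3, Fcer1a, Ms4a2, Tpsb2 and Tpsab1. For a count of 0 a floor of 3 counts, or 1.23 CPM, is given, which lies below the upper end of the exact interval. Mcpt4, a mast cell chymase of the same locus, had 16 UMIs, or 6.56 CPM against 1.21 CPM, a ratio of 5.40 (2.58 to 11.2) on too few UMIs to be tested. Mcpt8, a protease of basophils, was present at 117 CPM against 138 CPM in the other epithelial columns. Mcpt1 and Mcpt2 are close relatives in sequence, and how reads were divided between them is not given in the sources used here.

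The rule genes lie at 3 places in the genome (GENCODE M21, GRCm38). Gkn1 (chr6:87345650-87350942), Gkn2 (chr6:87373357-87379497) and Gkn3 (chr6:87383256-87388935) are neighbours. Mcpt1 (chr14:56017971-56020384) and Mcpt2 (chr14:56042041-56044642) lie in 1 protease locus with Mcpt9, at 0 UMIs in both sets, between them. Prap1 (chr7:140093395-140097200) overlaps the end of Fuom, which was also called higher, at 139.9 against 59.6 CPM, so reads of the pair are uncertain. Around the gastrokines, Gfpt1 (chr6:87042846-87092197), the rate-limiting enzyme of the hexosamine pathway that feeds protein glycosylation, was also called higher, at 278 against 94.2 CPM. Antxr1, which lies between Gfpt1 and Gkn1, was at 9.84 and 8.44 CPM. The 250 bases before the start of the rule genes are shown because these genes define the cells, and that they are high together here is fixed by the rule. RefSeq windows (GRCm38.p6, on the strand of the gene) were found for 5 of the 6 genes, all but Mcpt2. Capitals mark matches on either strand to 5 searched motifs, none of which overlap each other here. One is the core promoter motif TATAAA. A pair that zinc-finger factors of the gut endoderm are known to bind was searched as AGATAA, and in its second form with the letters TGATAA. The forkhead motif was searched as TGTTTAC, and the motif of Sp1-like factors as GGGCGG.
Gkn1, chr6:87350916-87351165, minus strand: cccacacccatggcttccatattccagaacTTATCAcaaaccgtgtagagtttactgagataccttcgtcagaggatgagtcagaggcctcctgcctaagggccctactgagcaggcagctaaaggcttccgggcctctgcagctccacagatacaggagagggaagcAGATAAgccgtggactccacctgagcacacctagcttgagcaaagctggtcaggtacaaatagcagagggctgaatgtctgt
Gkn2, chr6:87373115-87373364, plus strand: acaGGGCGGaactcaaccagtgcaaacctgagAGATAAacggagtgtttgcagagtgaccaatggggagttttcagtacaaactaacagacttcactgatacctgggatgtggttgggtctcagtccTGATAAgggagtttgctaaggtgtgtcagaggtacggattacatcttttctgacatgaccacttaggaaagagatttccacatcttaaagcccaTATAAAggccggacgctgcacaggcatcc
Gkn3, chr6:87388936-87389185, minus strand: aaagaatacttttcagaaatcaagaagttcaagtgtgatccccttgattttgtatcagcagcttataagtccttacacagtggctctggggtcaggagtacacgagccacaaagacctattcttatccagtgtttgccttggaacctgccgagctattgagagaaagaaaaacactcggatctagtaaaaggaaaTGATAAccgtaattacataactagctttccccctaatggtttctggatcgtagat
Prap1, chr7:140093146-140093395, plus strand: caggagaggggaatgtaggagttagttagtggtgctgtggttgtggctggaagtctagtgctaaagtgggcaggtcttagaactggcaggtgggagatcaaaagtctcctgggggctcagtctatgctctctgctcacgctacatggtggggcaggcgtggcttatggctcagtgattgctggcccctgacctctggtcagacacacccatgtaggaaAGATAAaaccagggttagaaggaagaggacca
Mcpt1, chr14:56017714-56017963, plus strand: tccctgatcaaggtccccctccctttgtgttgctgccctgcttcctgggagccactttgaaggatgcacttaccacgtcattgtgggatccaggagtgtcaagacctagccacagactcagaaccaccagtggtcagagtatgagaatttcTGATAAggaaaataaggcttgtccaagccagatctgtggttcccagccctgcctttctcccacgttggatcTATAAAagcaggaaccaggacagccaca

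Each of the 5 windows held AGATAA or TGATAA, which 16.6% of all 32851 windows of this length hold. TATAAA was found in the windows of Gkn2, from base 29 to 24 before the start, and Mcpt1, from base 28 to 23, and 12.4% of all windows hold it. GGGCGG was found in the window of Gkn2 and in 32.7% of all windows, and TGTTTAC in none of the 5 and in 3.17% of all. Among genes of the comparison with a window, AGATAA or TGATAA was in 16 of 88 higher genes outside the rule (18.2%), 11 of 106 lower genes (10.4%) and 886 of all 8089 (10.95%). These are letter matches only. None of the factors Gata4, Gata5 and Gata6 was called, with levels in the 350 cells and the other epithelial columns of 5.74 and 5.94 CPM, 26.2 and 27.4 CPM, and 53.7 and 59.5 CPM.

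Several genes that the rule did not use, most of them gastric, were called higher in these cells. Tff1 had 7184 CPM (7078 to 7291) against 1082 CPM, a ratio of 6.64 (6.50 to 6.79). Agr2, a disulfide isomerase of the endoplasmic reticulum needed to make mucins, had 3810.5 CPM against 483 CPM, a ratio of 7.88 (7.64 to 8.13). The gland mucin Muc6 had 132 CPM against 10.6 CPM, a ratio of 12.5 (10.3 to 15.2), and pepsinogen C (Pgc) 49.2 CPM against 6.61 CPM. The water channel Aqp5, found in antral glands, had 456 CPM against 85.2 CPM and the chloride channel Cftr 321 CPM against 82.5 CPM. Agr2 was on neither of the gastric lists used below, and Cftr was also on the list of pancreatic duct genes. Of the 8 duct genes tested, Cftr was the 1 called higher, beside 1.16% of all genes, and the median log2 ratio was 0.19.

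**Figure D1:**
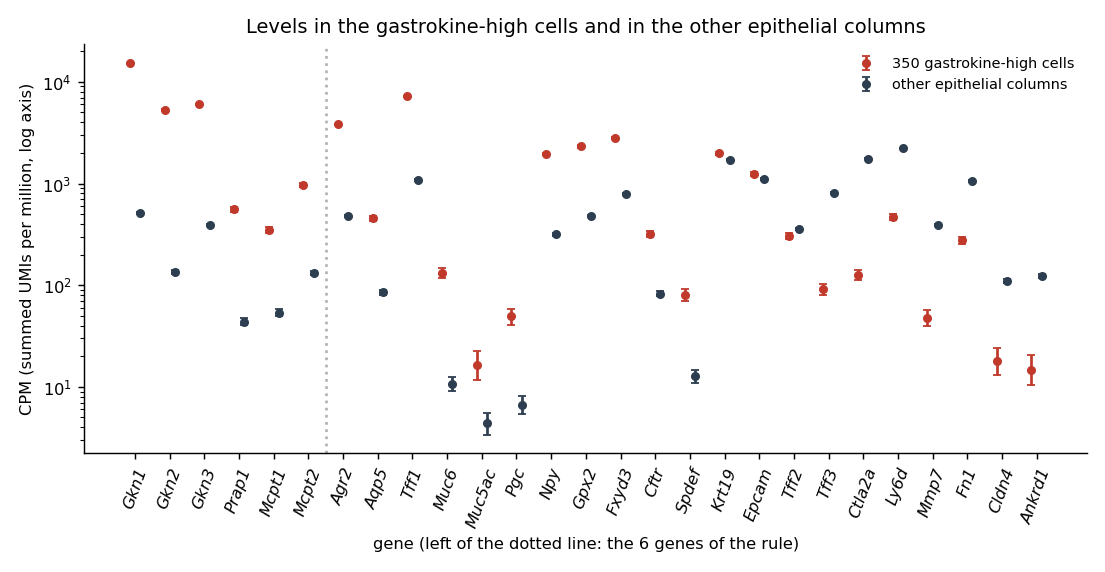
Level of each gene in CPM on a log axis, summed over the 350 gastrokine-high cells (red) and the 1893 other epithelial columns (dark), with exact Poisson intervals that cover counting error only. The 6 genes left of the dotted line chose the cells, Agr2, Tff1 and Muc6 are also far higher in red, Krt19 and Epcam nearly coincide, and Ctla2a, Ly6d and Fn1 are higher in the dark set.

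The label of a pit cell held in part. Of the 18 pit genes, 11 outside the rule were tested, 2 were called higher (Tff1 and Dpcr1, a membrane mucin-like gene) and none lower, with 10 of 11 above a ratio of 1 and a median log2 ratio of 0.88, beside 1.16% of all genes called higher. Dpcr1 was seen in 55 of the 350 cells, and 35 cells held 90.3% of its UMIs. Its level of 84.9 CPM lay below the 91.5 CPM of the other epithelial columns in cluster 5 of the clustering described below. Foxq1, a transcription factor needed for Muc5ac in surface cells, had 226 CPM against 117 CPM. Muc5ac itself, the mucin that defines the surface cell, had 16.4 CPM (11.7 to 22.3) against 4.39 CPM, a ratio of 3.74 (2.46 to 5.63). It was seen in 22 of the 350 cells (6.29%) and 1.69% of the others, and at this low level it was not called with 10 CPM added. The tight junction gene Cldn18 was at 33.2 CPM against 50.4 CPM. Of the 12 neck and antral gland genes, 10 outside the rule were tested. Of these, 4 were called higher (Aqp5, Muc6, Pgc and Cftr, the last also a duct gene) and none lower. A ratio above 1 was seen for 6 of 10, with a median log2 ratio of 0.20. Tff2, the trefoil peptide of the neck, had 305 CPM against 358 CPM and was seen in 16.0% of the 350 cells and 27.2% of the others. Pgc, which chief cells also make, was the 1 gene of the chief cell list with enough UMIs to be tested. The chief cell genes Gif, Pga5 and Lipf and the proton pump genes Atp4a and Atp4b of the parietal cell were at 0 UMIs in all 350 cells, with the same limit of 1.23 CPM, while the potassium channel Kcnq1, 1 of 6 parietal genes listed, was called higher at 96.8 against 42.7 CPM. The cells are therefore called gastrokine-high here, after the genes that chose them.

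The 20 genes with the highest ratios outside the rule (10 CPM added, seen in at least 25% of the 350 cells) included Agr2, Muc6, Tff1, Aqp5 and Cftr. The peptide Npy had 1959 CPM against 317 CPM, the glutathione peroxidase of the gut Gpx2 2319 CPM against 477 CPM, and Fxyd3, a regulator of the sodium pump, 2815 CPM against 790.4 CPM. The tetraspanin Tspan13, the neighbour of Agr2 on chromosome 12, had 283 CPM against 56.2 CPM. The proton channel Otop3 had 118 CPM against 22.9 CPM, and complement factor I (Cfi) 212 CPM against 48.3 CPM. Shisa2 had 61.9 CPM against 5.87 CPM, a ratio of 10.5 (8.05 to 13.9). The 20 also held Spdef, Oat, F5, Gm3336, Aqp1, Rnase4, Aldh1a3 and Phgr1, with ratios of 3.49 to 6.30. All 20 passed 2-fold under each of the 18 alternative settings, but their size depended on them. With 10 CPM added, the ratio of Tff1 was 6.59 and ranged from 2.99, with the score over Prap1, Mcpt1 and Mcpt2 only, to 14.6, with clusters 3 and 5 of an unsupervised clustering left out. The ratio of Agr2 was 7.75, with 5.19 under the score over Prap1, Mcpt1 and Mcpt2 only and 12.1 with the next 350 columns left out. That of Muc6 was 6.92 and ranged from 3.68 to 11.5, and that of Npy was 6.02 and ranged from 4.31 to 9.61.

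Free RNA can give a column UMIs of genes its cell does not express, and it was read in the 113 macrophage columns (at least 8 macrophage genes and fewer than 4 epithelial markers), which should lack these genes. With every cell thinned to 2500 UMIs, a Gkn1 UMI was found in 99.4% of the gastrokine-high cells, 39.9% of the other epithelial columns and 20.4% of the macrophage columns. For Tff1 the shares were 69.7%, 35.3% and 9.73%, and for Agr2 79.7%, 29.7% and 7.96%. For Muc6 they were 21.4%, 2.06% and 0%, and for Aqp5 42.3%, 9.93% and 0%. The macrophage columns were shallower, with a median of 3638 UMIs before thinning. Their limit on epithelial markers also leaves out columns that took up much free epithelial RNA, so these shares may understate it.

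The following lists are read beside 1.16% of all genes called higher and 1.36% called lower. Among ion and water transport genes, 6 of 13 tested were called higher (Aqp5, Aqp1, Fxyd3, Cftr, the carbonic anhydrase Car2 and the sodium pump subunit Atp1b1) and 1 lower (the chloride channel Ano1), with a median log2 ratio of 0.66. Atp1b1 and Car2 stood close to the limit, at ratios of 2.09 and 2.13. Among 19 tested genes of mucin O-glycosylation, 4 were called higher, the initiating enzymes Galnt6, Galnt7 and Galnt12 and the fucosyltransferase Fut2, and 1 lower (Gcnt1), with a median of 0.58. Galnt6 had 46.3 CPM against 6.75 CPM and Fut2 48.8 CPM against 12.2 CPM. Further genes that supply sugars for this pathway were picked out after their values were seen. They are Gfpt1, Gmds, which makes fucose donors (158 against 58.2 CPM), and the phosphomannomutase Pmm1 (310.5 against 140.1 CPM).

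Of 28 tested endoderm and epithelial transcription factors, Spdef and Creb3l4 were called higher and none lower, with a median of 0.18, beside 1.16% higher over all genes. Spdef, a factor of mucous and goblet cells, had 80.4 CPM against 12.8 CPM and was seen in 32.0% of the cells against 7.92%. Creb3l4, a membrane-bound factor of secretory cells, had 46.8 CPM against 7.49 CPM. Ern2, the stress sensor of mucous epithelia, was picked out after its value was seen and had 39.8 CPM against 6.95 CPM. Of 27 tested genes of the secretory pathway, Agr2 was the 1 gene called, and 20 lay above a ratio of 1 with a median log2 ratio of 0.24. The chaperone Hspa5 had 421 against 322 CPM and Xbp1 had 53.7 against 68.1 CPM. Of 21 detoxification genes, Gpx2 and Mgst2 were called higher.

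None of the 20 S phase and none of the 20 G2 and M phase genes was called, with medians of -0.14 and -0.04, and Mki67 was at 20.5 and 21.9 CPM. Lists of carcinoma identity held more calls, beside 1.16% higher and 1.36% lower over all genes. Of 14 tested genes of the classical subtype of pancreatic cancer, Agr2, Tff1 and Lgals4 were called higher and Tff3 lower. Of 12 tested basal-like genes, Ly6d and Krt17 were called lower. As a list they were not shifted, since 5 of the 12 lay above a ratio of 1 and the median was -0.03, beside -0.07 over all genes. Of 18 tested EMT and mesenchymal genes, 4 were called lower (Fn1, Vim, Lgals1 and Cdh2) and none higher, 2 lay above a ratio of 1, and the median was -0.49. Fibronectin (Fn1) had 277 CPM against 1062 CPM and the galectin Lgals1 664 CPM against 2111 CPM. Fn1 was seen in 97.3% and Lgals1 in 89.4% of the macrophage columns, and the part of macrophage RNA in these 2 levels was not tested.

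**Figure D2:**
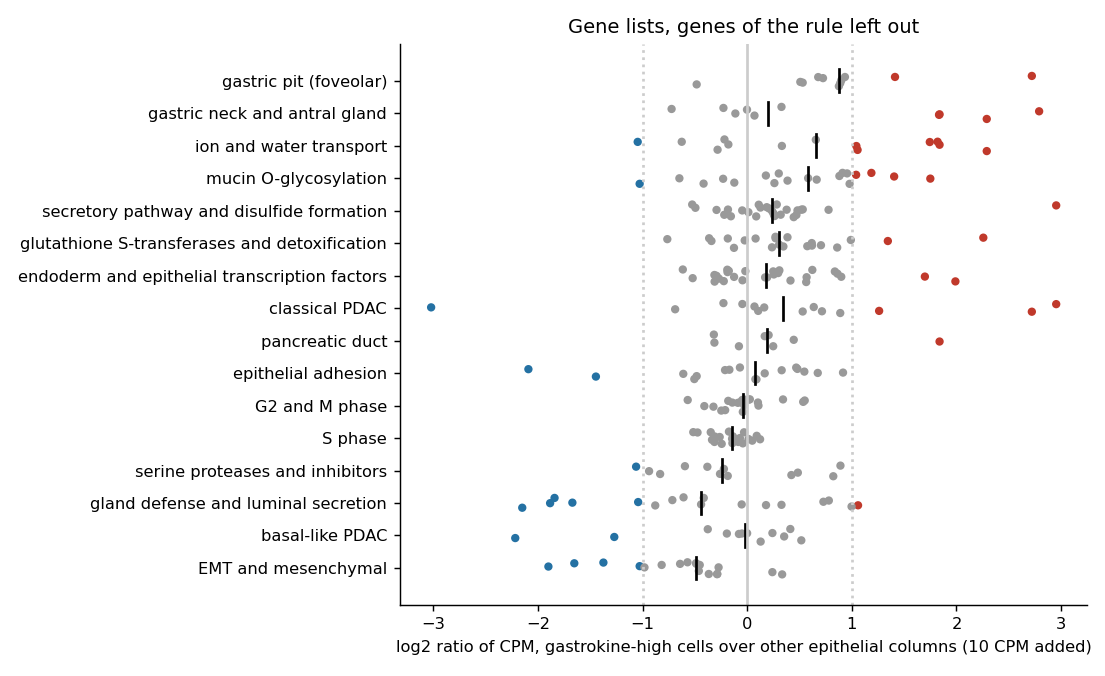
Log2 ratio of CPM, gastrokine-high cells over other epithelial columns with 10 CPM added, for each tested gene of 16 lists, without the genes of the rule. Red and blue points passed 2-fold (dotted lines), black bars are medians, and among these lists the pit genes have the highest median (0.88) and the EMT genes the lowest (-0.49).

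The trefoil genes parted within 1 locus. Tff1 (chr17:31161395-31165277), Tff2 (chr17:31141049-31144282) and Tff3 (chr17:31125306-31129646) lie side by side, and their ratios were 6.64, 0.85 and 0.11. Tff3, the intestinal member, had 91.0 CPM against 811 CPM. Of the 8 intestinal goblet genes, 4 were tested, with Spdef called higher and Tff3 lower (1.16% and 1.36% over all genes), and the goblet mucin Muc2 had 1 UMI in all 350 cells.

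Genes lower in the gastrokine-high cells included Ctla2a, a cysteine protease inhibitor, at 125 against 1755 CPM, and the matrilysin Mmp7, at 48.0 against 389 CPM. The claudin Cldn4 had 18.0 against 109.5 CPM, the surface protein Ly6d 468 against 2215 CPM and Ankrd1, a target of the Yap1 coactivator, 14.8 against 124 CPM. The siderophore-binding protein Lcn2 had 111 against 526 CPM, and Hmga2, a chromatin protein of embryonic tissue, 59.9 against 223 CPM. The other genes among the 20 with the lowest ratios were Tff3, Tm4sf1, Tuba1a, Dcun1d5, Fn1, Reg3b, Reg3g, Cald1, Ly6c1, Tmem123, Axl, Igfbp7 and Lgals1. Of these 20 calls, 10 were lost under at least 1 alternative setting.

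The other epithelial columns were not uniform, and the 350 cells together were therefore also set against the other epithelial columns of each cluster. Unsupervised clustering of all 2812 columns gave 14 clusters, and 258 of the 350 cells (73.7%, 68.8 to 78.3) lay in cluster 1, of which they made up 57.1%. With the 6 genes left out of the clustering the largest share was 73.4%, and at a finer resolution of 1.2 it was 38.6%. A further 48 cells lay in cluster 3. The clusters were drawn from the same counts, so levels by cluster are a description and not a test. Of the other epithelial columns, 1880 lay in 8 clusters that held at least 40 each.

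Against these 8 clusters the higher and the lower genes behaved differently. Both groups of genes were chosen by their ratio to the same columns pooled, so part of this difference may follow from the choice. Of the 20 genes with the highest ratios, 7 were at least 2-fold higher than in all 8 clusters (Agr2, Muc6, Tff1, Npy, Shisa2, Tspan13 and Aqp1) and 10 more in 7 of the 8. The exception was cluster 1 for all of these 10 but Gpx2, for which it was cluster 4. Of the 20 genes with the lowest ratios, none was at least 2-fold lower than in all 8 clusters or in 7 of them, and 11 were lower than in 4 or fewer. Ctla2a was at 6349 CPM in cluster 4, 6507 CPM in cluster 6 and 2382 CPM in cluster 8, and at 100.3 to 465 CPM in the other 5 clusters, beside 125 CPM in the gastrokine-high cells. Ly6d was at 12426 CPM in cluster 4 and 7084 CPM in cluster 8, but at 111 CPM in cluster 2, below the 468 CPM of the gastrokine-high cells. Cldn4 ranged from 16.8 CPM in cluster 5 to 469 CPM in cluster 6. The widest gaps were thus to clusters 4 and 6 for Ctla2a, to clusters 4 and 8 for Ly6d and to clusters 6 and 8 for Cldn4, and for each of the 3 genes at least 1 cluster lay below the gastrokine-high cells.

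**Figure D3:**
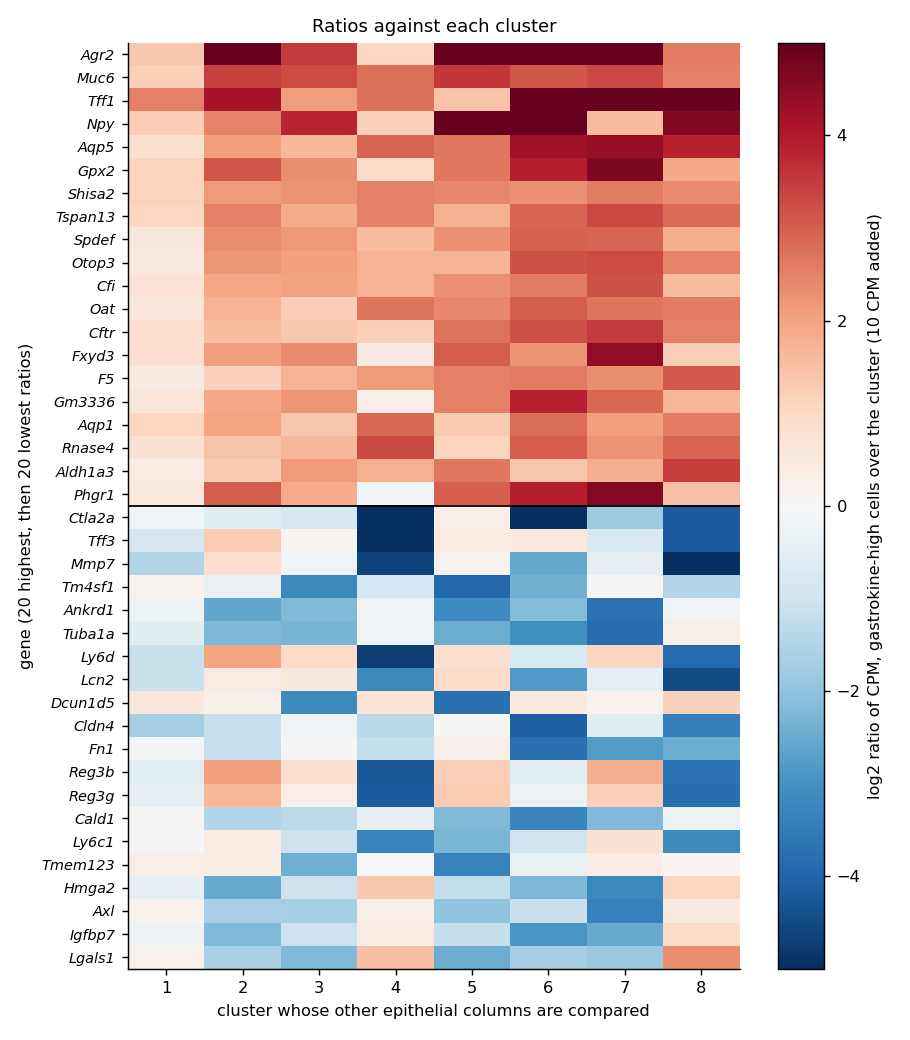
Log2 ratio of CPM (10 CPM added) of the 350 gastrokine-high cells over the other epithelial columns of each of 8 clusters, for the 20 genes with the highest and the 20 with the lowest ratios, with the colour scale ending at 5 in both directions. The upper rows are red across nearly all clusters, while the lower rows are deep blue in some clusters and pale or red in others. Within its own row, the deepest blue lies in clusters 4 and 8 for Ly6d and 3 and 5 for Dcun1d5.

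A run of neighbouring genes on chromosome 9 showed the same, and it was picked out after its values were seen. Within 1.5 Mb on each side of Yap1 (chr9:7931999-8004596), 13 genes were tested and 8 were called lower, beside 1.36% of all genes (Dync2h1, Dcun1d5, Mmp13, Mmp10, Mmp7, Tmem123, Birc2 and Yap1). Dcun1d5, Tmem123, the apoptosis inhibitor Birc2 and the transcriptional coactivator Yap1 together had 345 CPM (322 to 369) in the gastrokine-high cells. In the 469 other epithelial columns of clusters 3 and 5 they had 3578 CPM (3527 to 3629), and in the 1424 other epithelial columns outside these clusters 253 CPM (243 to 263). The 48 gastrokine-high cells inside cluster 3 had 349 CPM (296 to 408), against 2738 CPM in the 223 other epithelial columns of the same cluster. The latter was unevenly spread over columns, since 1 column held 1374 of their 7705 UMIs and the median was 5 UMIs at a median depth of 10418, beside a median of 2 UMIs at a depth of 7899 in the 48 cells. With clusters 3 and 5 left out of the comparison, Yap1, Birc2, Dcun1d5 and Tmem123 turned to ratios of 1.32, 1.09, 1.42 and 1.07 (10 CPM added). The metalloproteinases of the run did not follow these 4 genes, since Mmp7 had 578 CPM outside clusters 3 and 5 and 50.1 CPM inside them.

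**Figure D4:**
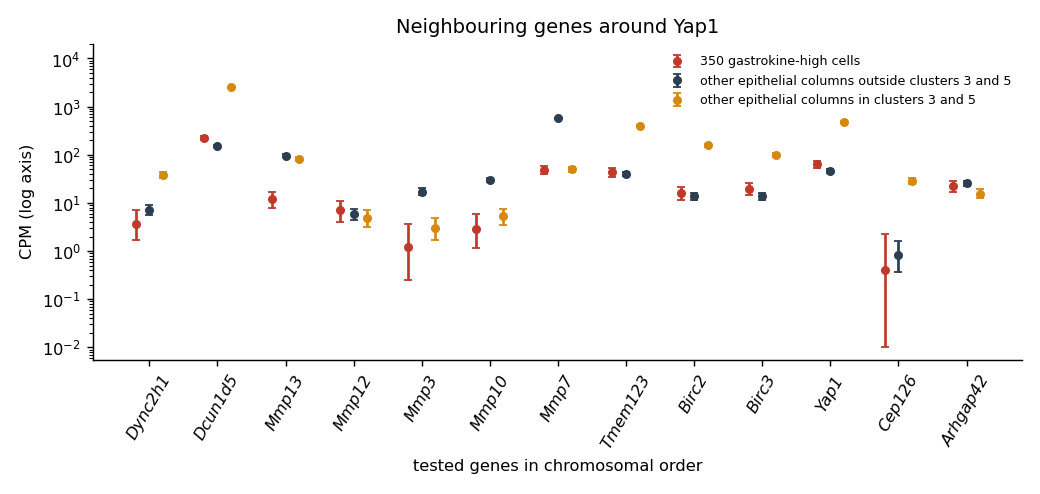
Level in CPM (log axis, exact Poisson intervals) of the 13 tested genes around Yap1 in chromosomal order, in the gastrokine-high cells (red), other epithelial columns of clusters 3 and 5 (orange) and all other epithelial columns (dark). Red and dark points lie close for Dcun1d5, Tmem123, Birc2 and Yap1, with orange far above, while Mmp7 is highest in the dark set.

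The levels declined over the ranks with no gap in the score at the 350th column. The next 350 epithelial columns by the same score had 1965 CPM of Gkn1, the following 350 had 352 CPM, and the last 143 had 0. Agr2, which the rule did not use, went from 3810.5 to 1231 and 611 CPM over the first 3 steps, Npy from 1959 to 692 and 549 CPM, and Muc6 from 132 to 41.1 and 4.68 CPM. Fn1 ran the other way, with 277, 353 and 801 CPM, and so did Cldn4, with 18.0, 34.5 and 72.9 CPM. Ctla2a did not follow this order, since it was at 125 CPM in the 350 cells and already at 1761 CPM in the next 350.

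**Figure D5:**
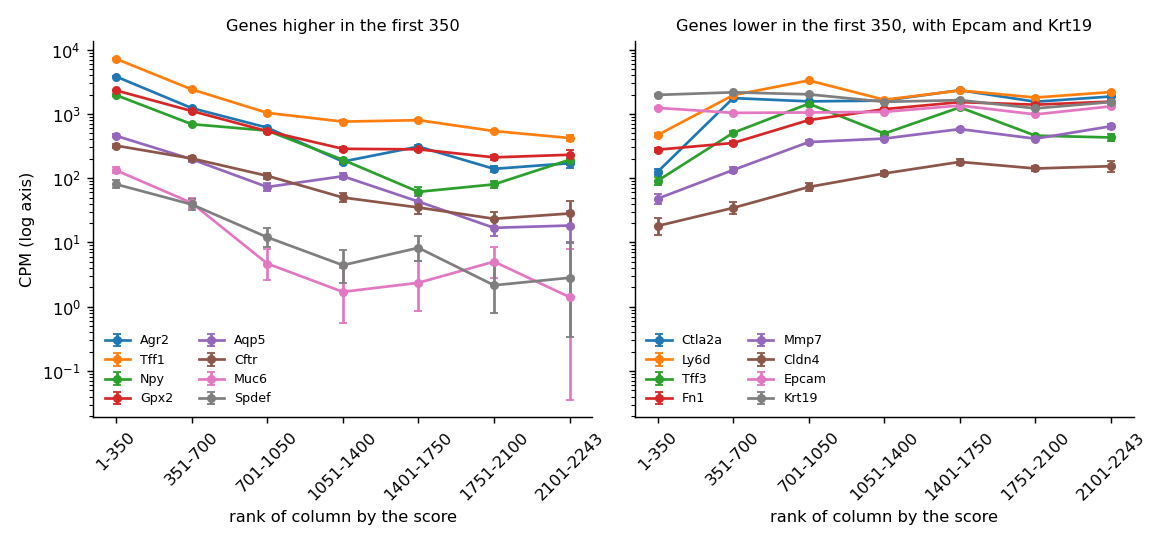
Level in CPM (log axis, exact Poisson intervals) in successive groups of 350 epithelial columns ranked by the score, the last group holding 143. Agr2, Tff1, Npy, Gpx2 and Muc6 decline over the first 3 groups, Fn1, Mmp7 and Cldn4 climb, and Ctla2a steps from 125 to 1761 CPM between the first and the second group.

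The 350 cells also differed among themselves. The 35 cells with the most UMIs of each gene held 39.0% of the Gkn1, 34.7% of the Gpx2 and 28.8% of the Cftr UMIs, but 77.4% of the Npy, 72.1% of the Tff1 and 69.97% of the Muc6 UMIs. Tff1 had a median of 5 UMIs per cell and a highest value of 1266, and 77 cells had none. Npy was seen in 170 cells and Muc6 in 105. The 105 cells with a Muc6 UMI had 6801 CPM of Agr2 against 2314 CPM in the 245 without, 9139.7 against 4428 CPM of Gkn3, 95.9 against 25.8 CPM of Pgc and 523 against 196 CPM of Tff2. Cftr did not follow, at 314 against 324 CPM, and the surface genes Tff1, at 9057 against 6247 CPM, and Gkn1, at 18579 against 13676 CPM, were higher with Muc6 too. Mki67 was at 7.38 CPM (2.71 to 16.1) on 6 UMIs in the cells with Muc6, against 27.1 CPM (19.7 to 36.3) in those without. The intervals of Top2a overlapped, at 18.4 CPM (10.3 to 30.4) against 34.5 CPM (26.0 to 44.8). The 170 cells with an Npy UMI had 1337 CPM of Mcpt2 against 616 CPM and 475 CPM of Mcpt1 against 227 CPM, and their Muc6 level was 134 against 131 CPM. Cells with a UMI for these genes were somewhat deeper, with median UMI counts of 6006 against 5352 for the Muc6 split, and the part of depth in these values was not tested.

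Across the 350 cells, the genes whose level was most like the score were Agr2 (Spearman rho 0.37), Fxyd3 (0.36), Npy (0.34), Tgoln1 (0.31) and Gch1 (0.28), over 2884 genes examined. Tgoln1 is a protein of the trans-Golgi network and Gch1 makes the cofactor tetrahydrobiopterin. The 5 most negative values, picked out after they were seen, were all ribosomal protein genes, led by Rps7 at -0.41. The score correlated with UMIs per cell at -0.13. All of these points share 1 library, and the values are a description.

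The rule joins genes that were not always high in the same columns. A score over the 3 gastrokines alone chose 350 columns of which 307 were shared with the main set, and a score over Prap1, Mcpt1 and Mcpt2 alone chose 350 of which 213 were shared. The columns of the second score still had 3112 CPM of Agr2 and 11261 CPM of Gkn1. They differed in Ctla2a, at 2534 CPM against 111 CPM under the gastrokine score, in Ly6d, at 2985 against 469.5 CPM, and in Tff3, at 756 against 88.2 CPM. In the clustering, Mcpt1 was at 227 CPM in the other epithelial columns of cluster 4, where Ly6d and Tff3 were highest, against 78.5 CPM or less in the other 7 clusters. Low Ctla2a, Ly6d and Tff3 were thus seen with the gastrokine score and not with the score over the other 3 genes.

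Other carcinoma cells of the tumor were set beside them in sets of 350 columns. Columns highest for the secreted defense genes Dmbt1 and Sftpd had 9378 CPM of Ly6d, 3108 CPM of Tff3 and 4964 CPM of Pglyrp1, an antibacterial protein, against 468, 91.0 and 2445 CPM in the gastrokine-high cells. Their Agr2 level was 1044 CPM, a ratio of the gastrokine-high cells to them of 3.65, but their Muc6 level was 9.97 CPM and their Tff1 level 373 CPM. Columns highest for Hmga2 and Cldn6 had 81.2 CPM of Agr2 and 159 CPM of Gpx2. Of the mesenchymal genes, Lgals1 was at 664 CPM in the gastrokine-high cells, 3065 CPM in the Hmga2 and Cldn6 columns and 245 CPM in the Dmbt1 and Sftpd columns, and Vim at 418, 988 and 84.2 CPM in the same order. Fn1 was at 277, 1815 and 1332 CPM, so it was lowest in the gastrokine-high cells while Lgals1 and Vim were not. Gkn1 was at 171 CPM in the Dmbt1 and Sftpd columns and 401 CPM in the Hmga2 and Cldn6 columns.

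A small part of the 350 cells carried RNA of other cell types. In all, 341 of the 350 met the epithelial rule used for the other columns, and 9 did not, 6 of them by fibroblast, 5 by mesothelial and 2 by endothelial markers. These 9 cells held 108 of the 147 Dcn UMIs and 64 of the 97 Col3a1 UMIs, both collagen matrix genes of fibroblasts that were called higher. Without them the ratios of Dcn and Col3a1 (10 CPM added) were 1.43 and 1.25 and neither call held. Of the 350 cells, 12 were in the highest 5% of doublet scores, and leaving that 5% out of both sets gave 122 higher and 157 lower genes. The summed level of the 11 macrophage genes was 247 CPM against 305 CPM in the other epithelial columns.

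The table of the large tumor is shallower, with a median of 1037 UMIs per column, and 5 barcodes occur in both tables. Of its 1463 columns under the macrophage limit, 71 had a UMI for at least 3 of the 6 rule genes. In the medium tumor 961 of 2495 columns did, or 402 after each column was thinned to 1037 UMIs. Many columns of the large tumor hold fewer than 1037 UMIs, and these counts are not over matched sets of epithelial columns. In the large tumor, 29 columns reached the score of the 350th cell. In its 495 epithelial columns, Prap1 had 914 CPM (859 to 972), Gkn3 707 CPM (658 to 758), Gkn2 375 CPM (340 to 413) and Gkn1 205 CPM (180 to 234). In the medium tumor, the epithelial columns with the 350 cells included had 116, 1183, 861 and 2603 CPM in the same order, so Prap1 led in the large tumor and Gkn1 in the medium tumor. Mcpt1 had 14.5 CPM and Mcpt2 72.4 CPM in the large tumor, and Muc6 had 36.2 CPM. Muc5ac and Pgc were at 0 UMIs there, with an exact upper limit of 3.34 CPM, where 3 counts correspond to 2.72 CPM in these columns. With 1 sample per tumor, tumor size and the animal cannot be told apart.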

How the data were processed

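Fresh tumors of KPC mice (1 allele of the model is not reported here) were dissociated and captured with 10x Genomics 3′ v2 chemistry, and the authors made gene by barcode tables of UMI counts with Cell Ranger. The labels give the build mm10. The version, the annotation and the calling of cells are not given in the sources used here. Each deposited table gives raw UMI counts for 1 tumor, with its 4 technical replicates pooled. The tables hold 20301669 UMIs in 2812 columns and 2239012 UMIs in 1533 columns. The 13 mitochondrial protein genes are at 0 in both, and 39 symbols stand on more than 1 row, kept apart.

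Counts were summed over sets of columns and given as CPM, with no test and no p-value. Genes were named as those of the rule, those of the lists, the 20 highest and 20 lowest ratios seen in at least 25% of the cells of the higher set, and the 5 most like the score. The members and lists were chosen with earlier results of these data known. Clusters came from Seurat 5.3.0 (10 principal components, resolution 0.8) and doublet scores from Scrublet in scanpy 1.11.5, which called 0 columns, so none was removed. TMM scaling with edgeR 4.0.16 was among the 18 alternatives, beside the CPM added, the UMI minimum, thinning, other comparison sets, other numbers of members and other scores. The comparison was tested on simulated data.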

Additional observations from a re-analysis of the deposited data

How the results depend on the processing

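The number of genes called higher stayed between 106 and 177 under 17 of the 18 alternatives and was 295 with 1 CPM added in place of 10. The number called lower was 643 with 1 CPM added, 288 against all other columns of the tumor and 227 with only the members of 1 cluster, against 144, and 99 to 205 under the others. TMM scaling shifted the log2 ratios by 0.07. The share of members in their main cluster was 38.6% at a resolution of 1.2, 82.5% with 200 members and 64.2% with 500. In the large tumor, 158 columns had at least 2 of the 6 genes and 29 reached the score of the 350th member. Of 77 named genes with a call, 40 kept it under all 18 alternatives.

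Ratios that turned (10 CPM added) did so under few alternatives. With the score over Prap1, Mcpt1 and Mcpt2 only, Ctla2a was at 1.85, Tff3 at 1.08, Ly6d at 1.65, Reg3b at 1.09 and Ly6k at 2.04. With the columns highest for Dmbt1, Sftpd, Reg genes and Ly6k left out, Reg3b was at 3.14, Reg3g at 2.33 and Ly6k at 1.41. With clusters 3 and 5 left out, Dcun1d5 was at 1.42, Tmem123 at 1.07, Birc2 at 1.09 and Yap1 at 1.32. Against all other columns under the macrophage limit, Dcn was at 0.302 and Col3a1 at 0.292, and against all other columns at 0.324 and 0.312. The cause of these turns was not tested. The alternatives on clusters 3 and 5, on the Dmbt1, Sftpd, Reg and Ly6k columns, on doublet scores and on 1 cluster were chosen after seeing the data. No paired analysis was possible because each table pools its technical replicates, and for the same reason none could be left out. The large tumor, at 1037 UMIs per column, limits what can be read from genes at 0 there.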
